A study of Mus musculus with 12 samples.

Results

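The mitochondrial ribosomal protein genes were taken as the protein-coding genes whose symbol starts with Mrpl or Mrps followed by a digit. The rule found 77 of the 15838 genes in the tables of *Slc4a11* mouse corneal endothelium. GENCODE annotates 78 such genes, and the remaining gene, *Mrpl53*, was not analysed here. The samples were corneal endothelial cells (CEC) on Descemet membrane from mice at 10 weeks of age, sequenced as 12 libraries of total RNA. The groups were male WT (*Slc4a11*+/+), female WT, male KO (*Slc4a11*-/-) and female KO, with 3 libraries in each. In KO mice, of the C57BL/6 strain, exons 9 to 13 of *Slc4a11* had been deleted by gene targeting, and the WT mice were littermates. *Slc4a11* encodes a membrane transporter of the corneal endothelium whose loss causes congenital hereditary endothelial dystrophy. The sample records describe pooled Descemet membranes, whereas the paper describes membranes in pairs, so that 1 library cannot be equated with 1 mouse here.

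The values below are the authors' mean levels, each averaged over all 12 libraries of both genotypes and both sexes. They describe how strongly the genes were read in this tissue, and hold no difference between KO and WT or between females and males. No spread between libraries stands behind them, so none of the differences between genes was tested.

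The tissue label was checked against marker genes. The 8 markers of corneal endothelium reported here were read at 9.15 to 12.79 log2 CPM, with *Col8a2*, a collagen of Descemet membrane, highest and the cadherin gene *Cdh2* lowest. In this list the pump subunit gene *Atp1b1* was at 11.34, *Col8a1* at 11.28, *Alcam* at 10.03, the bicarbonate transporter *Slc4a4* at 11.01 and the tight junction gene *Tjp1* at 10.22 log2 CPM. *Slc4a11* itself was at 10.71 log2 CPM in this mean over KO and WT libraries. All 5 stromal markers were also high, from 8.42 (*Kera*) over *Lum* (8.49), *Aldh3a1* (10.06) and *Dcn* (11.89) to 11.90 log2 CPM (*Col1a1*). The other lists were lower. The 5 epithelial markers (*Krt5*, *Krt12*, *Pax6*, *Krt14*, *Cdh1*) lay between -0.01 and 5.12, the 5 pigment cell markers (*Dct*, *Pmel*, *Tyrp1*, *Tyr*, *Mlana*) between -0.58 and 3.26, and 4 of 5 leukocyte markers (*Csf1r*, *Cd68*, *Adgre1*, *Ptprc*) between 0.94 and 3.29 log2 CPM. Of the lens markers 4 of 5 (*Bfsp1*, *Crybb2*, *Cryaa*, *Mip*) lay between -0.27 and 2.63, and of the muscle markers 3 of 5 (*Myh11*, *Acta2*, *Actn2*) between 4.33 and 7.69 log2 CPM. *Cd3e*, *Lim2*, *Des* and *Ckm* were not analysed here. The level of a mitochondrial ribosomal protein gene is therefore a mean over the cells of a whole tissue sample, and in such bulk RNA fewer cells of a type and less RNA per cell cannot be told apart. The part of stromal cells in the levels below was not tested.

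The mitochondrial ribosome (mitoribosome) translates the few messenger RNAs that mitochondrial DNA encodes, all of which specify subunits of the respiratory chain and ATP synthase. Its ribosomal RNAs are transcribed in mitochondria, whereas all of its proteins are encoded in the nucleus, made on cytosolic ribosomes and imported. Some of these proteins have counterparts in bacterial ribosomes and others were added in the mitochondrial lineage. The corneal endothelium is rich in mitochondria, which supply the ion pumps that keep the cornea dehydrated and clear.

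All 77 genes had a level, which follows from the rule, since it took only listed genes. None had a mean below 1 CPM, beside 1431 of the 15838 genes and 612 of the 12994 protein-coding genes. Their median was 3.82 log2 CPM, or 14.2 CPM, and the range ran from 1.05 log2 CPM for *Mrps34* to 5.66 log2 CPM for *Mrps25* (2.07 to 50.4 CPM). The members sat close together in the middle of all genes. Their median stood at percentile 50.8 of the 15838 genes, and 42 of the 77 lay above the median of all genes (3.76 log2 CPM). The median of the 12994 protein-coding genes was higher, at 4.37 log2 CPM. Of the members 65 (84.4%) lay within 1 log2 unit of their own median, against 26.4% of all genes around theirs. All genes include noncoding ones, with lower and upper quartiles of 1.45 and 5.45 log2 CPM. For the protein-coding genes alone these quartiles lay closer, at 2.65 and 5.77. The SD over genes was 0.89 log2 CPM for the members and 2.52 for all genes. Such closeness was not particular to the members. Their lower and upper quartiles were 3.42 and 4.33 log2 CPM. Those of the 20 genes of mitoribosome assembly and ribosomal RNA modification lay closer, at 2.85 and 3.41. The quartiles of the other nuclear gene lists below lay wider apart, for translation factor genes at 3.53 and 4.62 log2 CPM. Of the members 72 reached 2 log2 CPM, 68 reached 3, 33 reached 4 and 4 reached 5. Neighbours in the order of levels lay a median of 0.025 log2 CPM apart, so that most places in this order rest on very small differences whose error is unknown. The widest gap, 0.55 log2 CPM, set the lowest 4 genes (*Mrpl43*, *Mrps18b*, *Mrps18c* and *Mrps34*) apart from the other 73.

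**Figure D1:**
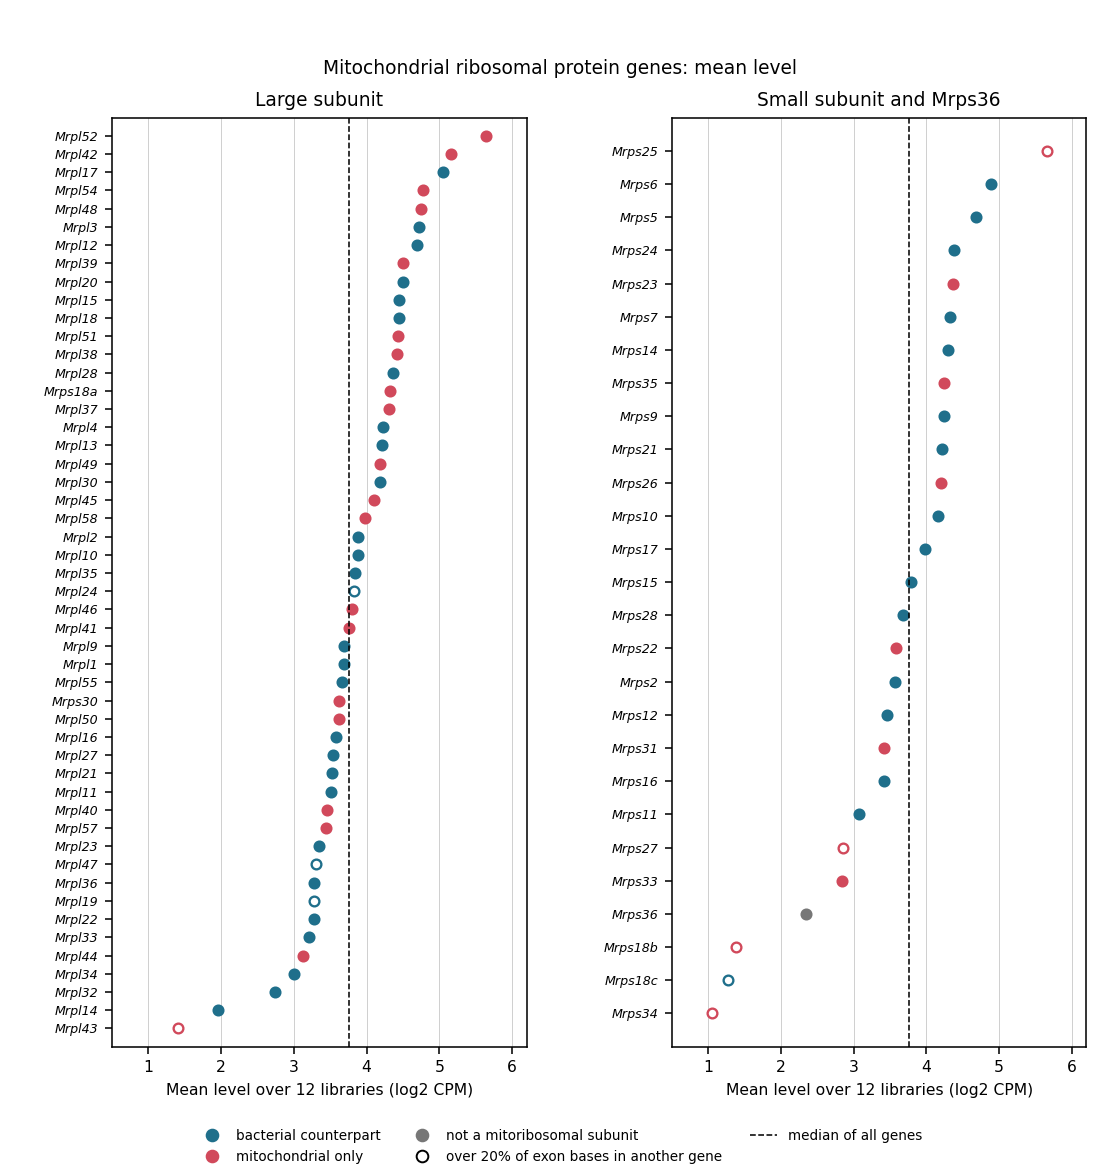
Mean level (log2 CPM, x axis, authors' mean over 12 libraries, no error given) of each of the 77 genes (y axis), with the large subunit on the left and the small subunit and *Mrps36* on the right. Colours mark proteins with and without a bacterial counterpart, open points mark the 9 genes with over 20% of their exon bases in another gene, and the dashed line is the median of all genes (3.76); most points lie between 3 and 5, with 4 open points below 1.5.

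A longer transcript yields more fragments, so levels of different genes were compared per kb of exon. On this scale the members had a median of 2.41 log2 CPM per kb, at percentile 60.8 of the 15824 genes with a length, and 56 of the 77 lay above the median of all genes (1.79 log2 CPM per kb). The median of protein-coding genes was 2.19 log2 CPM per kb, and 41 of the 77 lay above it. Their exons were shorter than average, with a median union of 2533 bases against 4031.5 over all genes. The coding sequences had a median of 588 bases against 1194. Across the 77 members the level in log2 CPM correlated weakly with the log2 of the exon length (Pearson's r = 0.27, Spearman's rho = 0.23, over genes of the same libraries). With the coding length r was 0.08 and rho 0.09. Across 12990 protein-coding genes r with the exon length was 0.31 and rho 0.32.

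The 5 members with the highest level per kb were *Mrpl52* (5.49 log2 CPM per kb), *Mrpl54* (5.05), *Mrps21* (4.64), *Mrps6* (4.28) and *Mrpl12* (4.07). *Mrpl12* encodes the counterpart of the bacterial stalk protein L7/L12, to which translation factors bind. The 5 lowest were *Mrps34* (0.01 log2 CPM per kb), *Mrps18b* (0.32), *Mrpl33* (0.33), *Mrpl32* (0.42) and *Mrpl43* (0.81). *Mrpl33* and *Mrpl32* came into this group through long annotated exons (7326 and 4982 bases) and were not among the lowest 5 by log2 CPM, at 3.21 and 2.74. By coding length instead of exon length, 3 of the 5 highest and 3 of the 5 lowest stayed in their group of 5.

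The subunits differed little in log2 CPM, whereas per kb of exon the large subunit's median was 0.51 higher. By coding length that difference was 0.13. The 50 genes of the large subunit, which holds the peptidyl transferase centre and the exit tunnel, had a median of 3.83 log2 CPM and 2.51 log2 CPM per kb. The 26 genes of the small subunit, which binds the messenger RNA and decodes it, had a median of 3.88 log2 CPM and 1.99 log2 CPM per kb. The ranges overlapped over nearly their whole length, from 1.41 to 5.64 log2 CPM in the large and from 1.05 to 5.66 in the small subunit. Per kb they ran from 0.33 to 5.49 in the large and from 0.01 to 4.64 in the small subunit. On the scale per kb 38 of 50 large subunit genes and 17 of 26 small subunit genes lay above the median of all genes.

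Splitting the subunits by origin gave no common order. In the large subunit the 30 genes with a bacterial counterpart had a median of 2.38 log2 CPM per kb and the 20 genes found only in mitochondrial ribosomes a median of 2.59. In the small subunit the order was the other way round, with medians of 2.31 for 16 genes with a bacterial counterpart and 1.75 for 10 mitochondria-specific genes. Over both subunits the medians were 2.38 (46 genes) and 2.41 log2 CPM per kb (30 genes).

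Among large subunit genes the highest levels in log2 CPM were those of *Mrpl52* (5.64), *Mrpl42* (5.16), *Mrpl17* (5.04), *Mrpl54* (4.77), *Mrpl48* (4.74) and *Mrpl3* (4.72). Of these *Mrpl17* and *Mrpl3* encode counterparts of bacterial proteins, and the other 4 encode proteins specific to mitochondria. *Mrpl52* (ENSMUSG00000010406, GRCm38 chr14:54426909-54429756, plus strand) was first among the 77 genes per kb, with 1109 exon bases. *Mrpl17*, *Mrpl48* and *Mrpl3* had 7605, 8152 and 6661 exon bases, and their levels per kb were 2.12, 1.72 and 1.99, all below the median of the members. *Mrpl42* stood at 3.28 log2 CPM per kb.

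The lowest large subunit genes were *Mrpl43* (1.41 log2 CPM), *Mrpl14* (1.96), *Mrpl32* (2.74), *Mrpl34* (3.00), *Mrpl44* (3.13) and *Mrpl33* (3.21). *Mrpl34* has the shortest exons of all members (607 bases), and per kb it stood at 3.72, above the median of the members. *Mrpl14* and *Mrpl44* stood at 2.04 and 2.41 log2 CPM per kb. The product of *Mrpl14* is a conserved protein on the face of the large subunit that meets the small subunit.

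Among small subunit genes *Mrps25* (5.66 log2 CPM), *Mrps6* (4.89), *Mrps5* (4.68), *Mrps24* (4.39), *Mrps23* (4.37) and *Mrps7* (4.33) were highest. Per kb their order was *Mrps6* (4.28), *Mrps24* (3.83), *Mrps23* (3.73), *Mrps7* (3.28), *Mrps25* (2.94) and *Mrps5* (1.96). *Mrps25* and *Mrps23* encode mitochondria-specific proteins, whereas the other 4 have bacterial counterparts. The lowest were *Mrps34* (1.05 log2 CPM), *Mrps18c* (1.28), *Mrps18b* (1.38), *Mrps33* (2.84), *Mrps27* (2.85) and *Mrps11* (3.08). *Mrps33*, *Mrps27* and *Mrps11* were at 2.10, 1.79 and 1.96 log2 CPM per kb, close to the median of the small subunit.

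The Mrps18 paralogs encode related proteins that occupy different places in the mitoribosome, and their levels differed widely. *Mrps18a*, whose product lies in the large subunit in spite of its name, was at 4.33 log2 CPM and 2.44 log2 CPM per kb. *Mrps18b* and *Mrps18c*, whose products lie in the small subunit, were at 1.38 and 1.28 log2 CPM, and at 0.32 and 1.17 log2 CPM per kb. *Mrps18c* encodes the closest counterpart of bacterial S18.

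Other members with unusual roles were spread over the range. *Mrpl12* was at 4.69 log2 CPM. *Mrpl58*, a large subunit protein with peptidyl-tRNA hydrolase activity that can rescue stalled ribosomes, was at 3.97 log2 CPM and 2.24 log2 CPM per kb. *Mrps30*, a large subunit protein in spite of its name, was at 3.62 and 0.89. *Mrps36* carries the name but its product is an adapter of the 2-oxoglutarate dehydrogenase complex of the citric acid cycle, and it was at 2.34 log2 CPM and 1.99 log2 CPM per kb.

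Some of these genes lie against another gene in the genome, and GENCODE places part of their exons inside exons of that neighbour. Of the 77 members 32 (41.6%) shared exon bases with another gene, near the 36.4% of all listed protein-coding genes, 27 of them with a gene on the opposite strand and 7 with one on the same strand. The libraries keep the strand, but whether the counting used it is not given in the sources used here. Reads from shared bases may therefore have been counted for either gene or for neither, and the levels of the genes below are uncertain to that extent.

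Of the members 9 had over 20% of their exon bases in other genes, and both the lowest and the highest member in log2 CPM were among them. *Mrps34* (ENSMUSG00000038880, chr17:24895116-24897502, plus strand), the lowest member, had 77.8% of its 2064 exon bases in other genes. Of these exon bases 63.4% lay opposite exons of *Mapk8ip3*, itself read at 6.28 log2 CPM, and 37.0% lay within *Nme3* on the same strand. *Mrps25* (ENSMUSG00000014551, chr6:92169525-92184033, minus strand), the highest member, had 69.8% of its 6576 exon bases opposite *Nr2c2*, an orphan nuclear receptor gene read at 6.48 log2 CPM.

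Of the 5 lowest members 4 were among these 9 genes. Besides *Mrps34* they were *Mrpl43* (chr19:45004829-45006442, minus strand, 33.4% opposite *Twnk*, the mitochondrial DNA helicase gene), *Mrps18b* (chr17:35910379-35916389, minus strand, 30.5% opposite *Gm16279*) and *Mrps18c* (chr5:100798627-100804471, plus strand, 23.2% within *Gm43511* on the same strand). The fifth, *Mrpl14*, shared 11.2% with *Tmem63b*. Of these neighbours *Twnk* was read at 3.68 and *Tmem63b* at 5.06 log2 CPM. *Gm16279*, *Gm43511* and *Nme3* had no level here, so whether they were read is unknown. The other 4 of the 9 were *Mrpl19* (36%, opposite *Gcfc2*), *Mrpl24* (26.3%, opposite *Rrnad1*), *Mrps27* and *Mrpl47* (24.2% each), and they were read at 2.85 to 3.82 log2 CPM.

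The 9 genes had a median of 2.85 log2 CPM, whereas the 45 members with no shared exon bases had a median of 3.88 and the 23 with up to 20% a median of 3.97. Per kb these medians were 1.16, 2.49 and 2.42 log2 CPM per kb. A lower median over 20% also stood among all listed protein-coding genes. There it was 3.32 log2 CPM for the 819 genes (6.30% of 12990) over 20%, and 4.42 for those with none, or 1.44 and 2.32 log2 CPM per kb. No member without shared exon bases was below 2.34 log2 CPM (*Mrps36*). The part of shared exons in the levels was not tested.

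**Figure D2:**
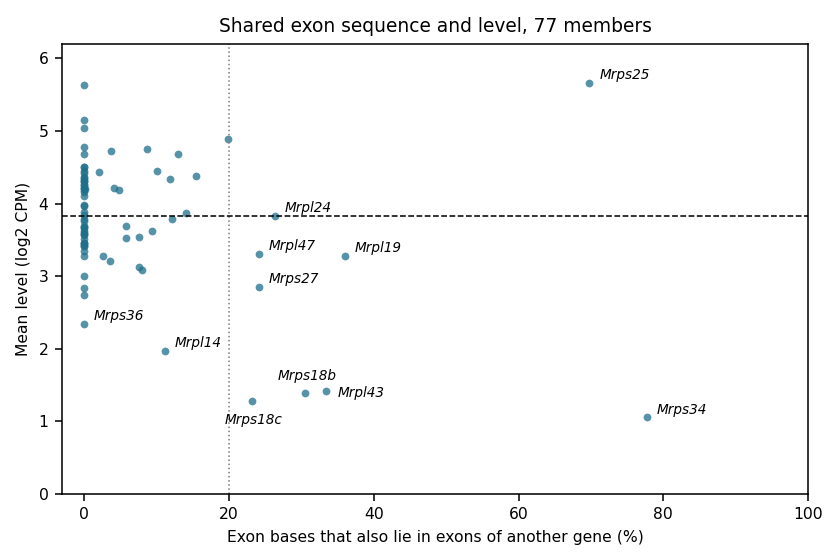
Share of each member's exon bases that also lies in exons of another gene (x axis, %) against its mean level (y axis, log2 CPM), 1 point per gene. The dotted line stands at 20% and the dashed line at the members' median (3.82); 4 of the 9 genes right of the dotted line lie below 1.5, and *Mrps25* lies at 69.8% and 5.66.

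Copies elsewhere in the genome are a further limit. GENCODE annotates 5 processed pseudogenes by name, of *Mrps36* (3), *Mrpl23* and *Mrpl48*, and reads that match gene and copy equally may have been split. Copies under other names were not searched, so other members may have copies as well. The copy *Mrpl23-ps1* had a row of its own, at -0.22 log2 CPM, against 3.34 log2 CPM for *Mrpl23*.

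The members were spread over 17 chromosomes. Chromosome 11 held 11 of them and chromosome 17 held 8, among them *Mrps34*, *Mrps18b* and *Mrpl14* but also *Mrps18a* and *Mrpl18*. By GENCODE gene starts, 18 members (23.4%) had a start facing away from that of another protein-coding gene at most 1000 bases apart. The share among the listed protein-coding genes was 9.81%. Genes overlapping at their starts were not counted, such as the members *Mrpl46* and *Mrps11*, which share 173 exon bases on opposite strands. Whether the DNA between the starts of the 18 counted pairs serves as promoter for both genes was not tested. *Mrps12*, whose product belongs to the decoding site, stood 172 bases from *Sars2*, the mitochondrial seryl-tRNA synthetase gene. Their levels per kb were 3.40 and 1.46 log2 CPM per kb. *Mrpl49* (3.28 log2 CPM per kb) stood 59 bases from *Fau* (7.30), which encodes a cytosolic ribosomal protein. *Mrps18b* (0.32 log2 CPM per kb) stood 45 bases from *Ppp1r10* (3.27). These 3 pairs were picked after their values were seen. Of the 16 pairs with a level for both genes, 11 lay over 1 log2 unit apart per kb and 5 within it, and in log2 CPM the counts were 10 and 6. *Mrpl2* and *Klc4* were the closest pair per kb (3.66 and 3.95 log2 CPM per kb).

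The promoter windows, from 250 bases before to 50 bases after the RefSeq start site, were available for 68 members and for 10313 of the listed protein-coding genes. This start lay 17016 bases from the GENCODE gene start for *Mrpl33*, 7979 for *Mrps24*, 3185 for *Mrpl35* and 2496 for *Mrpl36*. For the other members it lay within 850 bases. NRF1 and the ETS factor GABP are known regulators of nuclear genes for mitochondrial proteins, and YY1 is known to bind many housekeeping promoters. The following stretches end at the base before the RefSeq start site (GRCm38.p6), and are shown since they hold such motifs in genes of the upper and middle range of levels. Capitals mark the motif as it reads on the gene's strand.

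Mrpl17 (chr7:105811088-105811207, minus strand): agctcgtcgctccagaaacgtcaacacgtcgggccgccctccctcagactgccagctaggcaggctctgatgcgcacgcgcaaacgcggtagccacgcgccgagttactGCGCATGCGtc
Mrpl52 (chr14:54426789-54426908, plus strand): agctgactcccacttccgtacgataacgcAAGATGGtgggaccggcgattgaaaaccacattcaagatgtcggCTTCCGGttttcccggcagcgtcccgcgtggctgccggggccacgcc
Mrps18a (chr17:46110884-46111003, plus strand): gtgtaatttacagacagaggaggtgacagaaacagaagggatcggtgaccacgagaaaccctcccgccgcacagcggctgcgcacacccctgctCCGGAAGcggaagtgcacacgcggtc

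In *Mrpl17* the NRF1 core begins 11 bases before the start site. In *Mrpl52* the YY1 core begins 91 bases and the ETS core, read from the other strand, 47 bases before it. In *Mrps18a* the ETS core begins 26 bases before the start site. GENCODE starts *Mrpl17* and *Mrps18a* 12 and 18 bases further upstream than RefSeq, and *Mrpl52* at the same base. The windows of *Mrpl17* and *Mrps18a* hold further matches outside these stretches, an ETS and an SP1 core in the former and a YY1 core in the latter.

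The core GCGCATGCG, taken for NRF1, occurred on either strand in 7 of 68 member windows (10.3%), against 3.66% of all windows. The ETS core CCGGAAG occurred in 23 (33.8% against 17.9%) and the YY1 core AAGATGG in 13 (19.1% against 7.11%). At least one of the NRF1 and ETS cores was found in 27 windows (39.7% against 20.8%), and both in 3. The SP1 core GGGCGGG was found in 29 windows (42.6% against 48.2%) and the TATA box TATAAA in 4 (5.88% against 6.89%). The median GC content was 58.2% in member windows and 61% in all windows. None of the 5 motifs holds another within its letters, and a match shows only that these letters stand in the window.

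**Figure D3:**
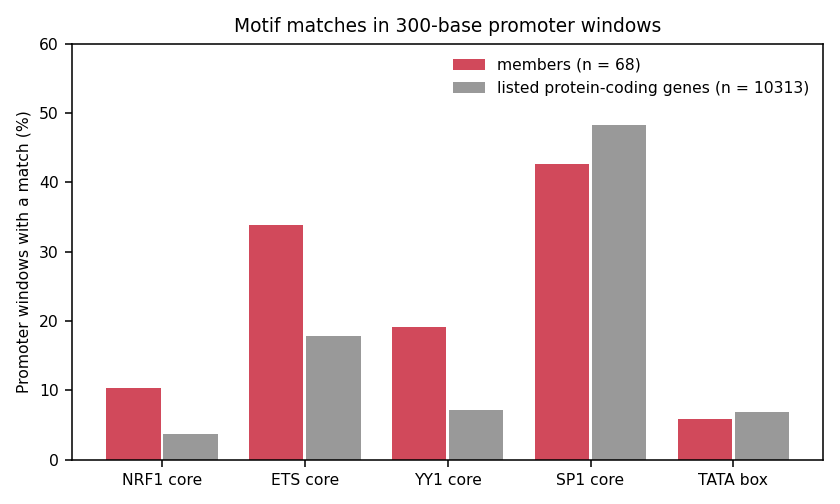
Share of promoter windows of 300 bases with a match to each motif (y axis, %), for 68 members and 10313 listed protein-coding genes (bars). The NRF1, ETS and YY1 bars of the members (10.3%, 33.8% and 19.1%) stand above those of all genes (3.66%, 17.9% and 7.11%), while the SP1 and TATA bars do not.

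Members with and without these cores overlapped in level. The 23 genes with the ETS core had a median of 2.24 log2 CPM per kb and the 45 genes without it a median of 2.49. Their levels ran from 1.28 to 5.64 and from 1.96 to 5.66 log2 CPM. For the NRF1 core the medians were 2.26 (7 genes) and 2.42 log2 CPM per kb (61 genes).

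The regulators themselves were read in the tissue. *Gabpa*, the DNA-binding subunit of GABP, was at 5.96 log2 CPM and *Nrf1* at 5.03. The coactivator gene *Ppargc1a* was at 2.18 and its partner *Esrra* at 3.71 log2 CPM. Among the genes for mitochondrial transcription *Polrmt*, the RNA polymerase, was at 4.68, *Tfam* at 4.52, *Tfb2m* at 2.89 and the elongation factor *Tefm* at 2.06 log2 CPM. *Lrpprc*, which stabilises mitochondrial messenger RNAs, was at 5.99 log2 CPM, and its partner *Slirp* was not analysed here. The 9 genes had a median of 1.67 log2 CPM per kb, below the 2.41 of the mitochondrial ribosomal protein genes, whereas in log2 CPM their median of 4.52 was above the members' 3.82.

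Other mitoribosomal proteins carry names that the rule does not take. Of these *Aurkaip1* was at 5.96 log2 CPM, *Dap3* at 5.03, *Ptcd3* at 4.82 and *Chchd1* at 3.96, all in the small subunit. *Dap3* encodes a GTP-binding protein and *Ptcd3* a pentatricopeptide repeat protein. *Gadd45gip1*, a large subunit protein near the exit tunnel, was at 0.77 log2 CPM and -0.55 log2 CPM per kb, below all 77 members on both scales, and 42.0% of its exon bases lay in other genes. The 5 genes had a median of 2.33 log2 CPM per kb, beside 2.41 for the members, and of 4.82 log2 CPM, beside 3.82.

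The genes that build and serve the mitoribosome were lower per kb. The 20 genes of mitoribosome assembly and ribosomal RNA modification had a median of 1.38 log2 CPM per kb and of 3.13 log2 CPM. On the scale per kb 5 of 20 lay above the median of all genes. By log2 CPM the helicase gene *Dhx30* (6.28) and the GTPase gene *Mtg2* (3.78) were highest, and the methyltransferase genes *Tfb1m* (2.21) and *Mrm2* (2.17) lowest. The 11 translation factor genes had a median of 1.42 log2 CPM per kb, but of 3.77 log2 CPM, close to the 3.82 of the members. Of these the initiation factor genes *Mtif2* and *Mtif3* were at 5.01 and 3.77 log2 CPM, and *Mtfmt*, which formylates the initiator tRNA, at 3.45. The elongation factor genes *Tufm*, *Tsfm*, *Gfm1* and *Guf1* were at 4.34, 2.90, 5.0 and 4.54 log2 CPM. For termination and recycling, *Mtrf1l*, *Mtrf1*, *Mrrf* and *Gfm2* were at 3.61, 2.64, 3.73 and 4.70 log2 CPM.

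The 17 mitochondrial aminoacyl-tRNA synthetase genes had a median of 1.17 log2 CPM per kb and of 3.19 log2 CPM. On the scale per kb 4 of 17 lay above the median of all genes. *Lars2*, for leucine, stood far from the others at 10.43 log2 CPM and 6.96 log2 CPM per kb. *Iars2*, for isoleucine, followed at 5.91 log2 CPM and 2.76 log2 CPM per kb, and *Nars2* (2.51 log2 CPM) and *Pars2* (1.82) were lowest in log2 CPM. *Lars2* shared no exon bases with another gene by position. Whether it took reads from RNAs of similar sequence was not tested, so its level is uncertain to that extent.

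Against the cytosolic ribosome and the respiratory chain, the mitochondrial ribosomal protein genes were low. The 81 genes for cytosolic ribosomal proteins had a median of 5.93 log2 CPM per kb, and the median of the members was 11.5-fold lower. By log2 CPM *Rpl8* (8.86) and *Rpl4* (8.77) were highest in that list, and *Rpl13a* (2.33) and *Rps10* (0.33) lowest. Many cytosolic ribosomal protein genes have processed pseudogenes that can take reads. The 82 nuclear genes for subunits of the respiratory chain and ATP synthase had a median of 4.54 log2 CPM per kb, and that of the members was 4.39-fold lower. By log2 CPM *Atp5a1* (8.68) and *Atp5b* (8.29) were highest and *Cox6b2* (0.80) and *Cox7a1* (0.20) lowest. Per kb *Atp5a1* (7.03 log2 CPM per kb) was still highest, but *Atp5l* (-0.70) was lowest and *Cox7a1* stood at 1.11. Both folds hold for exon length and were smaller on the other scales. By coding length the medians per kb were 7.77 (cytosolic ribosome), 6.24 (respiratory chain and ATP synthase) and 4.52 (members). In log2 CPM, without a length, they were 6.74, 5.19 and 3.82.

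**Figure D4:**
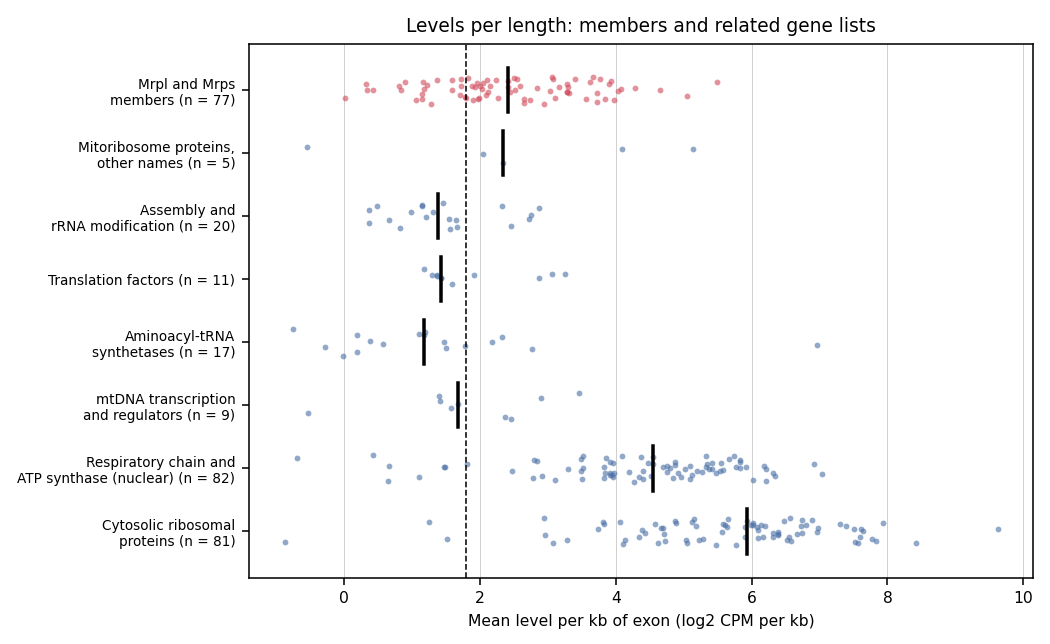
Mean level per kb of exon (x axis, log2 CPM per kb) for the 77 members and 7 related lists (y axis), with 1 point per gene, vertical bars at the median and a dashed line at the median of all genes (1.79). The members (median 2.41) lie above the assembly (1.38), translation factor (1.42) and synthetase genes (1.17) and below the respiratory chain (4.54) and cytosolic ribosomal genes (5.93).

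The RNAs that the mitoribosome contains and reads came from the mitochondrial genome. The ribosomal RNAs *mt-Rnr2* and *mt-Rnr1* were at 16.04 and 14.90 log2 CPM (67355 and 30638 CPM). Of the 13 mitochondrially encoded messenger RNAs, 7 were analysed here, at 8.45 (*mt-Nd6*) to 11.20 log2 CPM (*mt-Cytb*). The others in this range were *mt-Nd5* (11.13), *mt-Co1* (10.94), *mt-Nd1* (10.72), *mt-Nd2* (10.02) and *mt-Nd4* (9.62). Their median was 10.26 log2 CPM per kb. All 7 lay above all 77 mitochondrial ribosomal protein genes on the scale per kb, where the lowest of them was at 9.16 and the highest member, *Mrpl52*, at 5.49. Ribosomal RNA was depleted by the library kit to an unknown extent, so the levels of *mt-Rnr1* and *mt-Rnr2* do not give their share of the tissue's RNA.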

How the data were processed

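Total RNA of CEC on Descemet membrane was made into stranded libraries, and read from both ends, by the authors. The submitters' processing notes name HISAT2, GRCm38 (mm10) and limma without versions, and the paper adds CPM with TMM normalization. The authors deposited 3 tables of limma fits, for genotype, sex and their interaction, each with the same 15838 genes. The mean expression in these deposited tables is on the log2 scale (log2 CPM, averaged by the authors over all 12 libraries) and was equal in the 3 tables. The other columns hold the authors' own comparisons, namely the log2 fold change, the moderated t, its p-value, the adjusted p-value and the B statistic. These were not used, so no contrast between genotypes or sexes is given. No values per library were analysed here. Depth per library is thus unknown, and a level carries no SD, no n and no interval. The annotation release, the read counter and its strand setting are not given in the sources used here.

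Gene positions, exons and coding sequences were taken from GENCODE M21, which annotates GRCm38 and held 15824 of the 15838 genes. The level per length is the log2 CPM minus log2 of the length in kb, with the union of all annotated exons as the length. Alternatives were the longest coding sequence, in place of the length of the RefSeq protein that had been planned, and the longest transcript. Promoter windows came from RefSeq (GRCm38.p6), matched by symbol, and were searched on both strands. Protein sequences were not used here, so the planned identity of the Mrps18 paralogs and charge of the first residues were not computed. Medians, percentiles and counts were computed with Python 3.11.15, pandas 2.3.3, numpy 2.4.6 and scipy 1.17.1, and figures were drawn with matplotlib 3.10.9. The computations were tested on simulated data. The members and lists were chosen with earlier results of these data known. The motifs, the mitochondrially encoded genes, the shared exons and the divergent start sites were chosen after the files had been seen. The named genes are the 6 highest and 6 lowest of each subunit by log2 CPM, the 5 highest and 5 lowest of all members per kb, the Mrps18 paralogs, Mrpl12, Mrpl58, Mrps30 and Mrps36. They also include every gene of a list of at most 11 genes, the 2 highest and 2 lowest of each longer list, and the cell type markers, of which 2 are not reported here. Genes that share exons or a start region with a member are named besides, and were chosen after their values were seen.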

Additional observations from a re-analysis of the deposited data

How the results depend on the processing

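The median level of the members was the same to 2 decimals in the genotype, sex and interaction tables, and 3.83 log2 CPM without *Mrps36*, where it stood at percentile 51.0 of all genes. Against genes of at least 1 CPM the members' median stood at percentile 46.0. The large subunit's median minus the small subunit's was -0.05 log2 CPM, and it reversed to 0.038 when subunits were taken by name. Per kb the members' median was 4.52 with the coding length and 2.82 with the longest transcript, and its distance above all genes was 0.62 per exon length, 0.66 per coding length and 0.62 per longest transcript. Against protein-coding genes alone, chosen after seeing the data, it was 0.22 per exon length. The large subunit's median per kb lay 0.51 above the small subunit's by exon length, 0.13 by coding length and 0.38 by longest transcript, the lengths alone being changed. With only the 68 members of at most 20% shared exon bases, also chosen after seeing the data, the median was 3.93 log2 CPM and the lowest 1.96. No paired analysis was possible because the deposited means hold no values per library. For the same reason no replicate could be left out, the authors' own normalization and gene filter could not be changed, and the depth behind each level is unknown, so that small differences in order cannot be judged.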
